A study of Homo sapiens with 12 samples.

Results

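The data were examined for one question: whether hydrogen peroxide (H2O2) moved transcript levels differently in HEK293T cells with and without knockdown of HuR. HEK293T is a human embryonic kidney cell line. HuR, the product of ELAVL1, binds mRNA. The comparison used the 8 libraries of untreated and H2O2-treated cells out of the 12 in the series, 2 in each of 4 groups. The other 4, which the labels give as treated with HNE, enter no contrast. They add to the estimate of the spread, the filter on low counts and the scaling. The shControl groups carried a control hairpin and were left untreated or given 225 µM H2O2 for 18 h. The shHuR groups carried 1 hairpin against ELAVL1 and received the same 2 conditions. Both lines were made by lentiviral transduction and selected in puromycin, so all 4 groups carry a vector and have been through selection. With 1 line of each kind, an effect of the knockdown cannot be told apart from other differences between the lines. The quantity tested was the interaction, which is the H2O2 response in shHuR (treated minus untreated) minus the H2O2 response in shControl, on the log2 scale. A positive interaction means a response in shHuR that lay above the response in shControl. Of 23615 genes in the deposited count table, 16005 had enough counts to be tested.

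H2O2 oxidises reactive cysteines and is removed by catalase, peroxiredoxins and glutathione peroxidases. Oxidised KEAP1 no longer holds down the transcription factor NRF2 (encoded by NFE2L2), which drives antioxidant genes. HuR binds AU-rich and U-rich stretches, many of them in 3′ untranslated regions (3′ UTRs), and is known for stabilising short-lived mRNAs and for moving to the cytoplasm under stress.

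The 21 bases of the shHuR hairpin that match its target are shown because they aim the hairpin at ELAVL1. They match ELAVL1 and no other gene in the GENCODE release 29 transcripts, in the coding sequence, in exon 5 of 6, at chr19:7967669-7967689 of GRCh38 on the minus strand. All bases belong to the target, so none is set in capitals. The control hairpin was not searched.
shHuR hairpin target: cccatcacagtgaagtttgca

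Sites of the kind HuR binds are shown for 3 genes that return below, from the 3′ UTR of 1 GENCODE transcript per gene on GRCh38. The capitals mark the first AU-rich match, TATTTAT in NFE2L2 and ATTTA in CEBPB and HMGN5, searched on the mRNA strand. They lie at chr2:177230509-177230535 (minus strand), chr20:50192286-50192312 (plus strand) and chrX:81114521-81114547 (minus strand). Of 14000 tested genes with a 3′ UTR, 67.6% held ATTTA and 31.2% held TATTTAT, and every TATTTAT contains an ATTTA. A match is a description of the letters and not a measured HuR site.
NFE2L2: tacaaaaactTATTTATactgttctta
CEBPB: cccgtggtgttATTTAaagaagaaacg
HMGN5: ctttagcattgATTTAatttcagaaca

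ELAVL1 itself checks the labels. Its level was 90.5 and 86.0 CPM (counts scaled to the total of each library) in untreated shControl, and 92.2 and 99.4 CPM with H2O2. In shHuR it was 70.4 and 70.1 CPM untreated, and 70.6 and 74.5 CPM with H2O2. The 4 shControl libraries lay above the 4 shHuR libraries, at 92.0 ± 5.56 against 71.4 ± 2.08 CPM (SD, n = 4 per line), 22.4% lower in shHuR. The exact two-sided permutation test over 70 splits gave p = 0.0286, the smallest it can give. ELAVL1 RNA was thus reduced in shHuR and not absent. The interaction for ELAVL1 was -0.07 ± 0.0999 (log2, ± SE throughout for log2 estimates).

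Total counts ran from 24855946 to 28945635 over the 8 libraries. Within a group, the median absolute log2 difference between the replicates ran from 0.102 to 0.163, and the pair of H2O2-treated shControl libraries was the least alike (0.163, Pearson's r across genes 0.984, where genes are not independent replicates). Of 10 HEK293 cell markers, 9 were tested, at summed levels of 662 to 701 CPM in shControl and 512 to 563 CPM in shHuR. Most of that sum came from VIM, at 345 to 521 CPM, and NEFL, at 73.9 to 111 CPM. The kidney-lineage markers were low, with PAX8 at 0 to 0.147 CPM, PAX2 at 0.144 to 0.475 CPM and LHX1 at 0.551 to 1.22 CPM. Among markers of other cell types, CD3E and HBB were at 0 in all 8 libraries, the 3 fibroblast markers tested summed to 6.86 to 11.2 CPM, the 2 blood markers to 1.48 to 2.58 CPM, and the endothelial marker KDR was at 0.170 to 0.608 CPM. These are bulk samples, so a lower level can mean fewer cells of a kind or less RNA per cell, and these cannot be told apart.

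No gene had an interaction that passed. With edgeR's quasi-likelihood test and Benjamini-Hochberg adjustment at 0.05, 0 of 16005 genes passed (0%), and the smallest adjusted p was 0.578. At an unadjusted p under 0.05 there were 580 genes (3.62% of those tested), 264 positive (1.65%) and 316 negative (1.97%). About 5% would fall under that cut if no gene differed and the p-values held at their stated level, and 3.62% lies below that. This share alone does not show that no gene differs, since the p-values moved with the filter on low counts, as given below. DESeq2 called 3 genes, limma on log2(FPKM + 1) called 3, and limma on log2(FPKM + 0.1) called 0. The 3 DESeq2 calls were C17orf61-PLSCR3, COMMD3-BMI1 and TMEM110-MUSTN1, which are readthrough loci with fractional deposited counts, and the 3 limma calls were MIR877, MIR935 and MIR3935, with at most 3 counts in a library. The median interaction over all genes was -0.00, the median absolute interaction was 0.13, and the median SE was 0.18. Among the genes with the smallest p, fractional counts were common: of the first 24 without any further filter, 10 had fractional counts and 11 stayed under 5 CPM in the highest group. C17orf61-PLSCR3, the first of them, had 53 and 47 rounded counts in untreated shControl, 58 and 27 with H2O2, 31 and 112 in untreated shHuR, and 0 and 0 with H2O2. Reads of such loci are shared with the genes they span, so their levels are uncertain.

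Neither line alone had a called H2O2 response at 18 h. In shControl 0 genes passed edgeR's adjusted test (0%), 313 were higher with H2O2 at an unadjusted p under 0.05 (1.96%) and 382 lower (2.39%). DESeq2 called 2 in that line. In shHuR 0 passed (0%), 170 were higher (1.06%) and 370 lower (2.31%), and DESeq2 called 3. In either direction the unadjusted shares were 4.34% in shControl and 3.37% in shHuR. Both lie under the 5% that such a cut gives when no gene differs and the p-values hold at their stated level. Each line's response is 2 libraries against 2, and the 2 responses share no library. Across the 16005 genes the 2 responses correlated with Pearson's r = 0.034 and Spearman's rho = 0.042, and 51.4% of genes had the same sign. Among 11182 genes with whole counts and at least 5 CPM in the highest group, r was 0.093 and 51.7% had the same sign. These correlations are across genes, which share their libraries and are not replicates. At an unadjusted p under 0.05 in both lines there were 38 genes, 24 of them with the same sign.

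**Figure D1:**
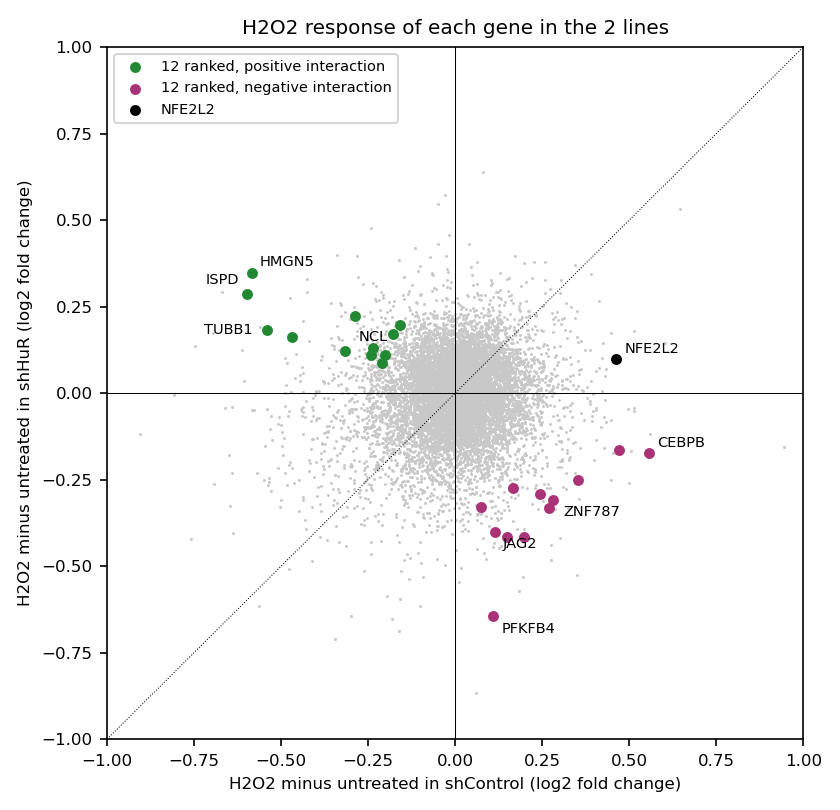
H2O2 response (log2 fold change, treated minus untreated) in shControl on the horizontal axis and in shHuR on the vertical axis, for 11182 genes with whole counts and at least 5 CPM in the highest group (grey). The 12 genes ranked first for a positive interaction (green) lie to the upper left of the dotted line of equal response, the 12 ranked first for a negative one (magenta) to the lower right, and NFE2L2 is in black.

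The lines themselves differed at many genes, both with and without H2O2, in 2 comparisons that share no library with each other but whose difference is the interaction. In untreated cells 560 genes were higher in shHuR at an adjusted p under 0.05 (edgeR, 3.5%) and 717 lower (4.48%). With H2O2 404 were higher (2.52%) and 747 lower (4.67%). A gene may pass in one of these and not in the other without a difference between them having been shown, so no difference is read from such a pair.

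As a second description, the 4 possible treated-minus-untreated differences in log2 CPM were taken in each line. In 1392 genes all 4 of shHuR lay above all 4 of shControl (8.7%), and in 1501 all 4 lay below (9.38%). In 446 genes the pairs were all up in shHuR and all down in shControl, and in 465 the reverse.

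The genes described next were the 12 of smallest unadjusted p in each direction among those with whole counts and at least 5 CPM in the highest group. They are ranked genes and not called ones, since the lowest adjusted p among them was 0.99997 (edgeR). Being ranked on the interaction, they must have separate responses, and their values are a description.

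The 12 ranked positive genes had interactions of 0.30 to 0.93. All 12 had a negative estimate in shControl and a positive one in shHuR. HMGN5, which encodes a nucleosome-binding protein that loosens chromatin, ranked first. Its level was 18.5 and 22.1 CPM in untreated shControl and 12.2 and 14.9 CPM with H2O2. The shHuR libraries held 12.5 and 15.0 CPM untreated and 16.7 and 18.4 CPM with H2O2. The groups of each line did not overlap, and the treated libraries were the lower ones in shControl and the higher ones in shHuR. The response was -0.58 in shControl and 0.35 in shHuR, an interaction of 0.93 ± 0.193 (unadjusted p = 0.000268, adjusted p = 0.99997, edgeR). In untreated cells HMGN5 was lower in shHuR (log2 -0.56, adjusted p = 0.0244), and with H2O2 the estimate was 0.37 (adjusted p = 0.118, edgeR). Without a filter on low counts the interaction of HMGN5 passed (edgeR, adjusted p = 0.00181), while over its 24 alternatives the adjusted p ran from 0.00181 to 1.00.

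Of the other positive genes, 3 encode proteins that act on RNA. NCL encodes nucleolin, an abundant nucleolar RNA-binding protein. It was at 1550 and 1625 CPM in untreated shControl and 1327 and 1359.8 CPM with H2O2. The shHuR libraries held 1497 and 1520.4 CPM untreated and 1545 and 1709 CPM with H2O2. The treated shControl libraries were below the other 6. The interaction was 0.35 ± 0.106 and NCL was higher in shHuR with H2O2 (0.28, adjusted p = 0.0414, edgeR). HNRNPA2B1, an hnRNP that takes part in splicing and mRNA transport, had an interaction of 0.30 ± 0.0909. UPF3B, a nonsense-mediated decay factor, had one of 0.44 ± 0.122, with responses of -0.32 and 0.12.

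GOLGA4, a golgin of the trans-Golgi network, was at 282 and 286 CPM in untreated shControl, 244 and 251 CPM with H2O2, 249 and 239 CPM in untreated shHuR, and 258 and 267 CPM with H2O2. Its untreated shControl libraries stood above the rest, and the interaction was 0.31 ± 0.0871. It was lower in untreated shHuR (-0.22, adjusted p = 0.0425, edgeR). RFK, the riboflavin kinase that makes flavin mononucleotide, had an interaction of 0.36 ± 0.102. CCDC41, a centriole protein gene now named CEP83, had one of 0.35 ± 0.104. The zinc finger genes ZNF823 and ZNF267 had interactions of 0.63 ± 0.188 and 0.37 ± 0.114.

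The remaining positive genes encode proteins of unrelated functions. ISPD, needed for the glycosylation of dystroglycan, was at 2.81 to 5.65 CPM over the 8 libraries, with an interaction of 0.88 ± 0.273. TUBB1, a beta-tubulin known from platelets, had one of 0.72 ± 0.230. KCNJ13, an inward-rectifier potassium channel, had one of 0.51 ± 0.163. ISPD and TUBB1 were higher in shHuR with H2O2 (0.77 and 0.80, adjusted p = 0.0282 and 0.00981, edgeR).

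Over the 12 positive genes, the untreated shHuR level was below untreated shControl in 11, and the treated shHuR level was above treated shControl in 12. These line differences, which the ranking favours, passed in 3 genes untreated and in 3 with H2O2, beside 1277 and 1151 of all 16005 genes. In 10 of 12 every treated library lay on one side of the untreated ones in each line, opposite between the lines.

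The 12 ranked negative genes had interactions of -0.75 to -0.40. All 12 had a positive estimate in shControl and a negative one in shHuR, and in 11 the libraries lay on opposite sides in every pair. ZNF787, a zinc finger gene, had the smallest p. It was at 20.8 and 21.1 CPM in untreated shControl, 26.4 and 24.6 CPM with H2O2, 27.6 and 25.0 CPM in untreated shHuR, and 20.5 and 21.9 CPM with H2O2. The untreated shControl and treated shHuR libraries were the 4 low ones. The interaction was -0.59 ± 0.130, with responses of 0.28 and -0.31 and an unadjusted p of 0.000467.

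JAG2 encodes a Notch ligand. It was at 37.8 and 35.7 CPM in untreated shControl and 39.7 and 39.8 CPM with H2O2. The shHuR libraries held 28.9 and 29.7 CPM untreated and 22.0 and 22.4 CPM with H2O2. The 4 groups did not overlap, and the treated shHuR libraries were the lowest. The responses were 0.11 in shControl and -0.40 in shHuR, and the interaction was -0.51 ± 0.126. JAG2 was lower in shHuR without H2O2 (-0.33, adjusted p = 0.0391) and with it (-0.84, adjusted p = 0.000156, edgeR).

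CEBPB, a leucine zipper transcription factor induced by stress and inflammation, was at 7.57 and 7.98 CPM in untreated shControl and 11.2 and 11.7 CPM with H2O2. In shHuR it was at 11.9 and 12.6 CPM untreated and 10.3 and 11.4 CPM with H2O2. Only the untreated shControl pair was low. The response was 0.56 in shControl and -0.17 in shHuR, an interaction of -0.73 ± 0.199. CEBPB was higher in untreated shHuR (0.65, adjusted p = 0.0137), while the line estimate with H2O2 was -0.08 (adjusted p = 0.799, edgeR). Its 3′ UTR holds 1 ATTTA, the site shown above.

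PFKFB4, a bifunctional enzyme that sets the level of the glycolytic activator fructose 2,6-bisphosphate, had the most negative interaction of the ranked genes. It was at 33.6 and 30.5 CPM in untreated shControl and 34.5 and 34.5 CPM with H2O2. The shHuR libraries held 20.3 and 23.0 CPM untreated and 10.8 and 16.9 CPM with H2O2. Both shHuR groups were below both shControl groups, and the treated shHuR libraries were the lowest and differed most from each other. The response was 0.11 in shControl and -0.64 in shHuR, and the interaction was -0.75 ± 0.211. It was -0.47 without replicate 1 of treated shHuR and -1.11 without replicate 2. Without a filter on low counts it passed (edgeR, adjusted p = 0.00615, range over 24 alternatives 0.00615 to 1.00). PFKFB4 was lower in shHuR untreated (-0.56, adjusted p = 0.034) and with H2O2 (-1.32, adjusted p = 0.000258, edgeR).

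Across the 12 negative genes the line difference, which the ranking favours, passed in 5 untreated and in 3 with H2O2. Over all 16005 genes 1277 and 1151 passed. The 8 ranked negative genes not yet described were between 7.39 and 32.2 CPM in every library. The homeobox gene MNX1 had an interaction of -0.60 ± 0.164 and the kinase gene RIPK4 one of -0.60 ± 0.169. SULT4A1, of the sulfotransferase family, had responses of 0.20 and -0.42 and was lower in shHuR with H2O2 (-0.62, adjusted p = 0.0106, edgeR), against -0.01 untreated. KIAA1958 had an interaction of -0.63 ± 0.188 and the tetraspanin gene TSPAN15 one of -0.54 ± 0.159. HTRA2, a serine protease of the mitochondrial intermembrane space, had one of -0.44 ± 0.135. FCHSD1, an F-BAR protein gene, had one of -0.56 ± 0.174, and DUSP9, a MAP kinase phosphatase, one of -0.40 ± 0.125.

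**Figure D2:**
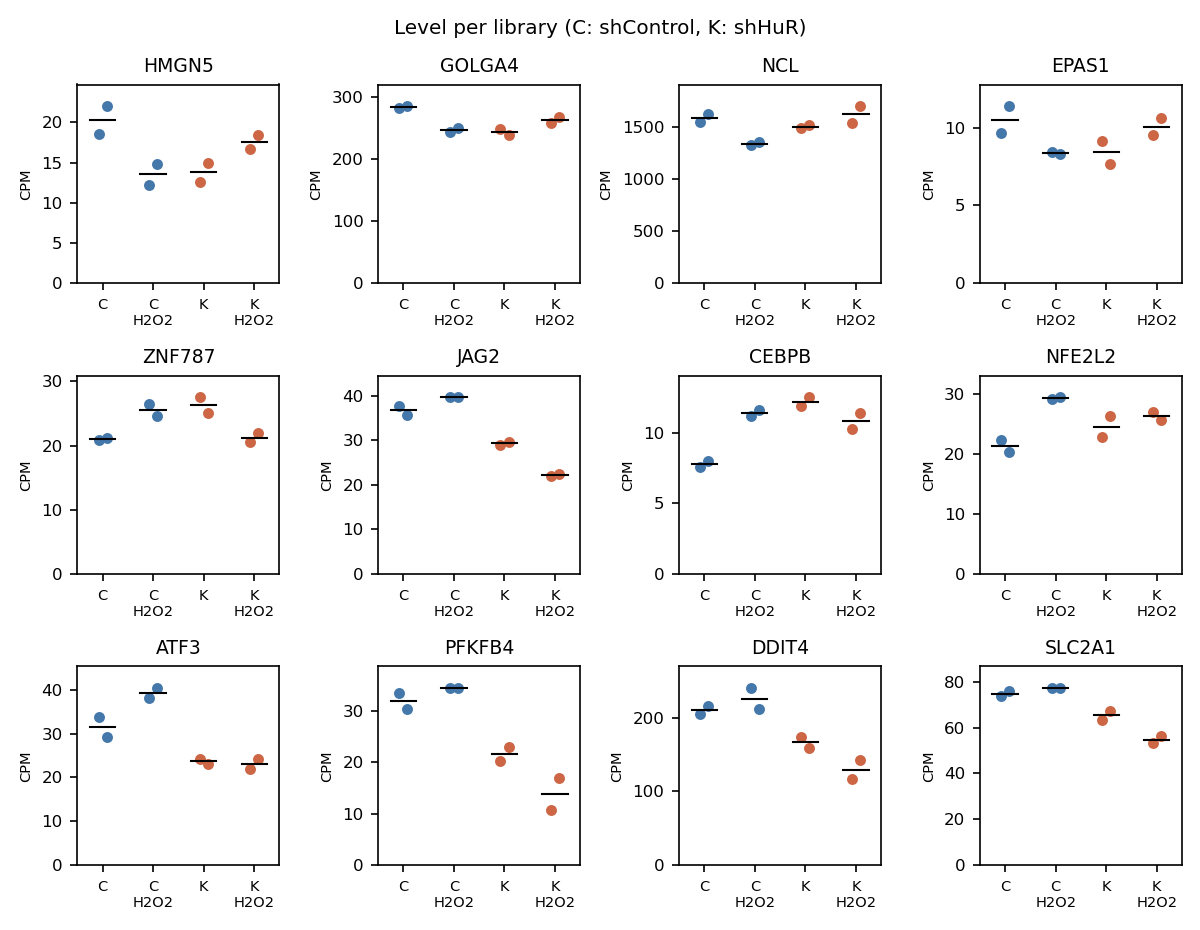
Level in CPM (vertical axes, each from 0) of 12 genes in the 8 libraries, in shControl (C, blue) and shHuR (K, orange), untreated or with H2O2. Points are libraries and bars are means of 2; for HMGN5 the treated pair is lower than the untreated one in shControl and higher in shHuR, and for JAG2 the treated shHuR pair is the lowest of the 4.

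NFE2L2, which encodes NRF2, was at 22.2 and 20.3 CPM in untreated shControl and 29.1 and 29.5 CPM with H2O2. With the ELAVL1 hairpin it was at 22.8 and 26.2 CPM untreated and 26.9 and 25.6 CPM with H2O2. The treated shControl libraries were the highest of the 8, and the shHuR groups overlapped. The response was 0.46 in shControl (unadjusted p = 0.000456) and 0.10 in shHuR, neither passing the adjusted test, and the interaction was -0.37 ± 0.143 (unadjusted p = 0.0231, adjusted p = 0.99997, edgeR). Leaving out 1 library at a time moved it between -0.46 and -0.26. KEAP1, the inhibitor of NRF2, had an interaction of -0.24 ± 0.114 and was higher in untreated shHuR (0.32, adjusted p = 0.0274, edgeR).

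Of 30 NRF2 targets tested, 0 had an interaction at an unadjusted p under 0.05. In all 22 were negative, beside 50.4% of all genes, and the median was -0.08. The median was -0.04 without replicate 2 of untreated shControl, and without replicate 1 of untreated shHuR it was -0.05 with 16 negative. HMOX1, the heme oxygenase, was at 9.34 and 10.6 CPM in untreated shControl and 10.4 and 10.4 CPM with H2O2. In shHuR it was at 11.1 and 10.7 CPM untreated and 9.36 and 11.7 CPM with H2O2. Treated and untreated libraries overlapped in each line, and the interaction of HMOX1 was -0.11 ± 0.213. NQO1, a quinone reductase, had an interaction of 0.23 ± 0.220. The interactions of GCLM and GCLC, the subunits of the first enzyme of glutathione synthesis, were -0.01 ± 0.116 and 0.11 ± 0.148. TXNRD1, a thioredoxin reductase, had one of -0.01 ± 0.108, and SRXN1, the sulfiredoxin that repairs peroxiredoxins, one of -0.10 ± 0.121. SLC7A11, the cystine transporter, was the 1 target higher with H2O2 at an unadjusted p under 0.05 in each line. It was at 119 and 106 CPM in untreated shControl and 141 and 136 CPM with H2O2, and at 105 and 99.7 CPM in untreated shHuR and 118 and 119 CPM with H2O2. Treated libraries lay above untreated ones in both lines. The responses were 0.31 and 0.21 (unadjusted p = 0.000677 and 0.00926, edgeR), neither passing, and the interaction was -0.09 ± 0.0996. Leaving out 1 untreated shControl library moved it to -0.18 (replicate 1) or -0.01 (replicate 2). In the same way SRXN1 went to -0.18 and -0.01 without replicates 2 and 1 of treated shControl, while without replicates 1 and 2 of untreated shHuR GCLC went to 0.21 and 0.01 and NQO1 to 0.38 and 0.09.

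Of 32 tested enzymes that remove peroxide, 0 had an interaction at an unadjusted p under 0.05, and the median was -0.01. CAT, catalase, was at 32.4 and 30.1 CPM in untreated shControl and 35.5 and 38.1 CPM with H2O2, and at 30.8 and 30.3 CPM in untreated shHuR and 33.5 and 33.5 CPM with H2O2. Its treated libraries were the higher ones in each line, and the interaction was -0.10 ± 0.117, with -0.16 and -0.05 without replicates 1 and 2 of untreated shControl. PRDX1, a peroxiredoxin, had an interaction of 0.03 ± 0.132 and TXN, thioredoxin, one of -0.07 ± 0.149. TXNIP, the inhibitor of thioredoxin, was higher in shHuR by 1.02 untreated (adjusted p = 0.0002) and by 1.01 with H2O2 (adjusted p = 0.000161, edgeR), with an interaction of -0.00 ± 0.151. It stood at 9.98 to 12.1 CPM in the shControl libraries and 20.9 to 24.0 CPM in the shHuR ones.

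The list with the most members at an unadjusted p under 0.05 was that of hypoxia-inducible factor (HIF) targets. Like every list here, it was chosen with earlier results of these data known, and its members share the same libraries. HIF is the transcription factor that raises glucose uptake and glycolysis when oxygen is low, and its hydroxylases need iron. The list also holds HIF subunits and regulators. Of 30 tested, 23 had a negative interaction, beside 50.4% of all genes, and the median was -0.12, against -0.00 over all genes. At an unadjusted p under 0.05 there were 6 negative and 1 positive, beside 1.97% and 1.65% of all genes. The 6 were PFKFB4, DDIT4, MIR210HG, SLC2A1, NDRG1 and PFKFB3. Without replicate 1 of treated shHuR the negative ones were 2 and the median was -0.07. The median was -0.20 without replicate 2 of that group and -0.18 without replicate 2 of untreated shHuR, and 4 were negative at that p without replicate 2 of untreated shControl. None passed the adjusted test.

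DDIT4, a stress-induced inhibitor of mTORC1, was at 205 and 216 CPM in untreated shControl and 241 and 211 CPM with H2O2. The shHuR libraries held 174 and 159 CPM untreated and 116 and 143 CPM with H2O2. The shControl groups overlapped, and the treated shHuR libraries were the lowest of the 8. The interaction was -0.47 ± 0.150. DDIT4 was lower in shHuR with H2O2 (-0.80, adjusted p = 0.000706), with -0.34 untreated (adjusted p = 0.0687, edgeR). Without a filter on low counts its interaction passed (edgeR, adjusted p = 0.0233, range over 24 alternatives 0.0233 to 1.00).

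SLC2A1, the glucose transporter GLUT1, was at 73.9 and 75.9 CPM in untreated shControl, 77.4 and 77.1 CPM with H2O2, 63.5 and 67.5 CPM in untreated shHuR, and 53.2 and 56.2 CPM with H2O2. The 4 groups did not overlap. The interaction was -0.31 ± 0.104, and the gene was lower in shHuR with H2O2 (-0.50, adjusted p = 0.0013), against -0.19 untreated (adjusted p = 0.127, edgeR). MIR210HG, the host transcript of miR-210, was at 8.82 and 9.45 CPM in untreated shControl, 11.8 and 7.30 CPM with H2O2, 6.27 and 4.51 CPM in untreated shHuR, and 2.50 and 3.38 CPM with H2O2. The treated shHuR pair was the lowest, the shControl groups overlapped, and the interaction was -0.92 ± 0.337. PFKFB3, another enzyme of fructose 2,6-bisphosphate, had one of -0.29 ± 0.112 and NDRG1 one of -0.40 ± 0.160.

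The 1 positive member at that p was EPAS1, which encodes HIF-2 alpha. It was at 9.63 and 11.4 CPM in untreated shControl and 8.42 and 8.31 CPM with H2O2, and at 9.16 and 7.67 CPM in untreated shHuR and 9.50 and 10.6 CPM with H2O2. Treated libraries were the lower ones in shControl and the higher ones in shHuR, and the interaction was 0.59 ± 0.213. HIF1A had an interaction of 0.21 ± 0.131.

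Beside the interaction, each line's own response shows where the HIF list moved. In shHuR 24 of 30 members were lower with H2O2 and 12 at an unadjusted p under 0.05, among them BNIP3 (-0.38) and SLC2A3 (-0.65). Over all genes 2.31% were lower in shHuR at that p. In shControl 19 of 30 were also lower, 2 of them at that p, and 11 higher with 0 at that p. The medians were -0.16 in shHuR and -0.03 in shControl. In untreated cells 11 members were lower in shHuR at an adjusted p under 0.05, and with H2O2 17 were (edgeR), beside 4.48% and 4.67% of all genes. Those 17 held all 11. The 6 that passed with H2O2 and not without it were BNIP3L, DDIT4, MIR210HG, P4HA2, PFKFB3 and SLC2A1, of which BNIP3L and P4HA2 had interactions of -0.19 ± 0.136 and -0.19 ± 0.140, with responses of the lines that overlapped.

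The 250 bases before the start were taken for the HIF targets PFKFB4, DDIT4 and SLC2A1, each of which passed between the lines with H2O2. The window of DDIT4 is shown because it alone held the letters marked. It is chr10:72273674-72273923 of GRCh38.p14, plus strand, from the RefSeq promoter table. The capitals mark the core of the hypoxia response element, ACGTG, searched on both strands (CACGT on the other), which in this window occurs 1 time. The letters occur in 10 of the 24 HIF list members whose symbols matched that table (41.7%), in 22.6% of 11138 matched tested genes and in 18.7% of all 27305 windows of that length. PFKFB4 and SLC2A1 have no match in theirs.
DDIT4: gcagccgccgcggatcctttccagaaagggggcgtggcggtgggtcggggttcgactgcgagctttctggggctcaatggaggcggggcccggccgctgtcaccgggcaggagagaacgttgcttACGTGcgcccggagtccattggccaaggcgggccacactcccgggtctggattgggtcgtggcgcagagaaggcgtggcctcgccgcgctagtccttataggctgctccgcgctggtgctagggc

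Glycolysis turns glucose into pyruvate. Of 21 of its genes tested, 19 had a negative interaction (50.4% over all genes), and the median was -0.14. At an unadjusted p under 0.05, 2 were negative, beside 1.97% of all genes. ALDOA, the aldolase, was at 697 and 646 CPM in untreated shControl and 675 and 767 CPM with H2O2, and at 591 and 662 CPM in untreated shHuR and 549 and 547 CPM with H2O2. The treated shHuR pair was the lowest and the shControl groups overlapped, with an interaction of -0.30 ± 0.109. Untreated shHuR overlapped untreated shControl and lay below treated shControl. PFKL, a phosphofructokinase subunit, was at 211 and 200 CPM, then 212 and 201 CPM with H2O2 in shControl, and at 202 and 187 CPM, then 157 and 169 CPM with H2O2 in shHuR. Its shControl groups overlapped, its treated shHuR libraries were the lowest, and the interaction was -0.26 ± 0.102.

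In shHuR 18 of the 21 glycolysis genes were lower with H2O2, and the median response was -0.13, against -0.01 in shControl. At an unadjusted p under 0.05, 8 of them were lower in shHuR, beside 2.31% of all genes. In untreated cells LDHA, PDK1 and PGK1 were lower in shHuR at an adjusted p under 0.05, and with H2O2 10 genes were (edgeR), those 3 among them. Over all genes the shares were 4.48% and 4.67%. The 7 others were ALDOA, ALDOC, ENO1, ENO2, HK2, PFKL and PFKP, with interactions between -0.38 (ALDOC) and -0.09 (ENO2), of which ALDOA and PFKL were at an unadjusted p under 0.05. GAPDH, often used as a reference gene, had an interaction of -0.17. Without replicate 1 of treated shHuR the median interaction was -0.09 and 16 were negative. The number negative at an unadjusted p under 0.05 was 6 without replicate 2 of treated shHuR, 7 without either HNE-treated shControl library, and 0 without replicate 2 of untreated shControl. Many glycolysis genes are themselves known HIF targets, while PFKFB3, PFKFB4 and SLC2A1 were counted only among the HIF targets.

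**Figure D3:**
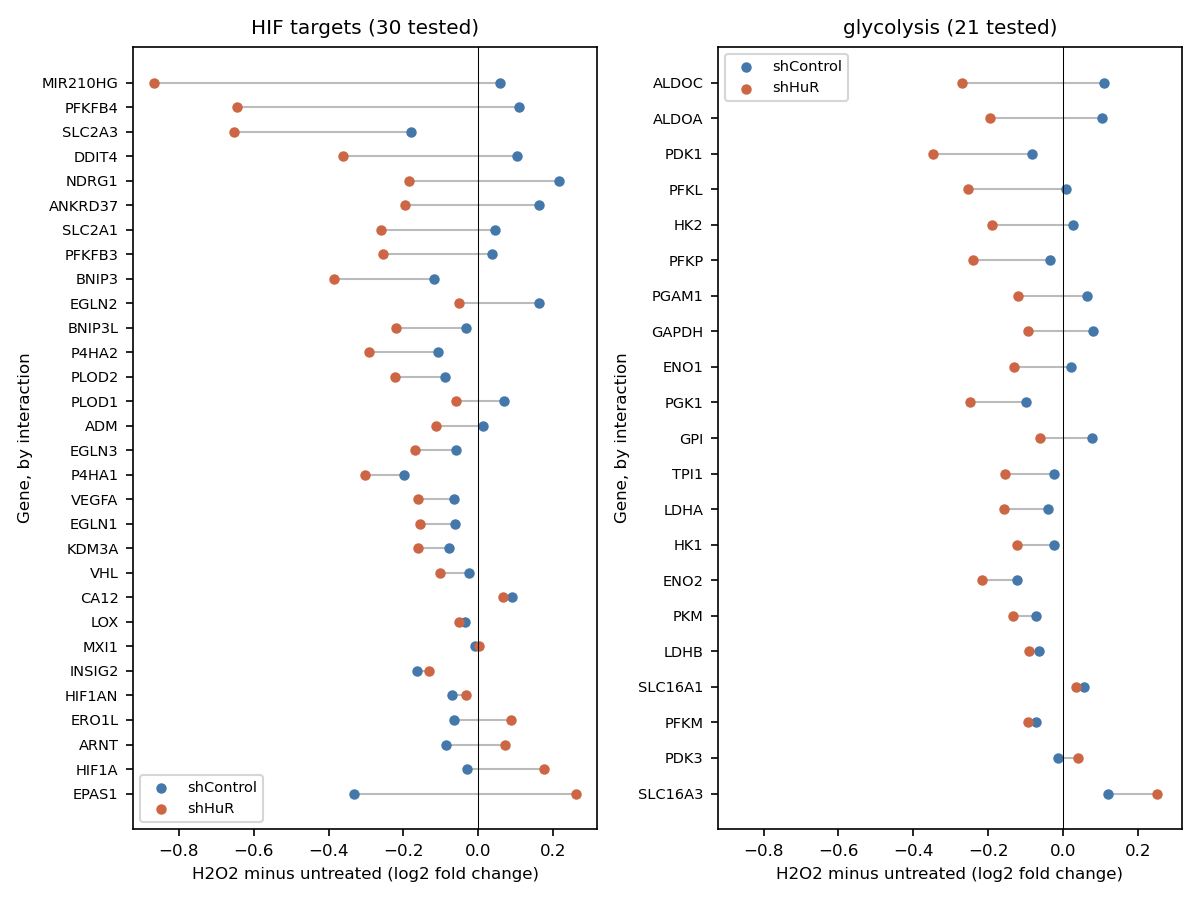
H2O2 response (log2 fold change, horizontal axis) of 30 HIF targets and 21 glycolysis genes in shControl (blue) and shHuR (orange), ordered by interaction. In 23 of 30 and 19 of 21 the shHuR point lies to the left of the shControl point, and EPAS1 lies farthest the other way among the HIF targets.

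ATF4 is the transcription factor of the integrated stress response and drives amino acid uptake and synthesis. Of 31 targets, 25 had a negative interaction (50.4% over all genes), and the median was -0.10. At an unadjusted p under 0.05, where 1.97% of all genes were negative, 3 targets were, namely CEBPB, DDIT4 and ATF3. That number was 7 without either HNE-treated shControl library, 5 with the 8 libraries alone, 2 without replicate 2 of treated shControl, of untreated shControl or without replicate 1 of untreated shHuR, and 1 without replicate 1 of treated shHuR. In shControl 8 targets were higher with H2O2 at an unadjusted p under 0.05 (ASNS, ATF3, CEBPB, GARS, SLC1A5, SLC7A11, SLC7A5 and WARS) and 0 lower, beside 1.96% of all genes higher. In shHuR 1 was higher and 2 lower at that p (DDIT4 and STC2), beside 1.06% and 2.31% of all genes. None passed the adjusted test in either line, and the median responses were 0.11 in shControl and 0.01 in shHuR. ATF3, itself a stress-induced transcription factor, was at 33.7 and 29.3 CPM in untreated shControl and 38.2 and 40.4 CPM with H2O2. In shHuR it was at 24.3 and 23.0 CPM untreated and 21.8 and 24.1 CPM with H2O2. Treated shControl libraries were the highest and the shHuR groups overlapped, with an interaction of -0.36 ± 0.135. ATF3 was lower in shHuR untreated (-0.41, adjusted p = 0.0188) and with H2O2 (-0.78, adjusted p = 0.000378, edgeR).

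Many immediate early genes encode short-lived transcription factors. Of 35 tested, 25 had a negative interaction (50.4% over all genes), and the median was -0.11. The share over all genes differed by GC content, as given below. At an unadjusted p under 0.05, where 1.97% of all genes were negative, 3 members were: ATF3, JUND and FOSB. JUND was at 18.5 and 21.1 CPM in untreated shControl, 21.9 and 24.5 CPM with H2O2, 18.6 and 17.6 CPM in untreated shHuR, and 14.9 and 16.1 CPM with H2O2. The treated shHuR pair was the lowest, and the interaction was -0.45 ± 0.156. FOSB was under 1 CPM in every library. The median of this list was -0.24 without replicate 1 of untreated shControl and -0.03 without replicate 2, and -0.26 and -0.07 without replicates 1 and 2 of untreated shHuR. It was -0.18 and -0.06 without replicates 1 and 2 of treated shHuR.

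Of 36 mRNAs reported as HuR-bound, 1 (2.78%) had an interaction at an unadjusted p under 0.05, NFE2L2, beside 3.62% of all genes. The median was -0.02. It was 0.03 without replicate 1 of untreated shHuR, 0.01 without replicate 1 of untreated or of treated shControl, 0.00 without replicate 1 of treated shHuR and -0.04 without replicate 2 of untreated shControl, so its sign turned with single libraries. CCND1, cyclin D1, was lower in shHuR both untreated (-1.10, adjusted p = 2.15e-05) and with H2O2 (-1.01, adjusted p = 3.07e-05, edgeR), and its interaction was 0.09 ± 0.120. Of 23 genes for AU-rich element binding proteins, 0 had an interaction at that p. HNRNPD, which encodes AUF1, had one of 0.18 ± 0.141.

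Over all 16005 genes 50.4% had a negative interaction, 1.97% at an unadjusted p under 0.05. Of 83 cytosolic ribosomal protein genes, 62 had a negative interaction and the median was -0.07, with 3 negative at an unadjusted p under 0.05 (RPL18, RPL15 and RPS28). Of 87 nuclear genes of oxidative phosphorylation, 62 were negative and 5 were so at that p, with a median of -0.07. Without replicate 1 of untreated shHuR these 2 medians were 0.00. They were -0.13 and -0.16 without replicate 2 of untreated shHuR, -0.02 and -0.01 without replicate 1 of treated shControl, and -0.02 and -0.03 without replicate 1 of treated shHuR. With 1 library left out, the numbers negative at that p ran from 0 to 6 and from 0 to 9. Of 50 clustered histone genes, 40 were negative, 3 at that p, with a median of -0.10. That median was -0.06 without replicate 1 of untreated shControl and -0.16 without replicate 2 of untreated shHuR, and the number at that p was 0 without replicate 1 of treated shHuR. HIST1H2AC, a core histone H2A gene, was at 290 and 305 CPM in untreated shControl, 319 and 309 CPM with H2O2, 371 and 356 CPM in untreated shHuR, and 327 and 332 CPM with H2O2. Its 4 groups did not overlap, and the interaction was -0.22 ± 0.0912.

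The H/ACA small nucleolar RNAs, which guide pseudouridylation, were the list with the most positive median, 0.17 over 92 members with 67 positive. Their share of all counts ran from 0.278% to 0.536% over the 8 libraries and differed most between the untreated shControl replicates (0.343% and 0.536%). The median was -0.25 without replicate 2 of untreated shControl and 0.48 without replicate 1 of that group. It was also negative without replicate 2 of treated shHuR (-0.15) and without replicate 2 of untreated shHuR (-0.06), so its sign rests on single libraries. For the 72 box C/D RNAs, which guide ribose methylation, the median was -0.01, and -0.78 to 0.39 with 1 library left out.

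Of the other lists, HSF1 targets had 17 of 22 members positive, with a median of 0.03 and 0 at an unadjusted p under 0.05. Without replicate 2 of treated shControl 9 were positive (median -0.02), without replicate 2 of treated shHuR 10 were (-0.01), and with an offset for GC content 12 were, so the direction rests on single libraries. Endoplasmic reticulum stress genes had 13 of 26 positive. Of 31 p53 targets 21 were negative, 1 of them at that p, TP53I3 (-0.93 ± 0.380, at 1.76 to 5.21 CPM). Of 13 NADPH oxidases and other peroxide sources, 3 were negative at that p, beside 1.97% of all genes. CYBA, the p22phox subunit, was at 19.6 and 24.2 CPM in untreated shControl, 27.7 and 23.5 CPM with H2O2, 43.1 and 41.8 CPM in untreated shHuR, and 36.8 and 36.2 CPM with H2O2, an interaction of -0.44 ± 0.154. SMOX, the spermine oxidase, which makes H2O2, had one of -0.57 ± 0.201, and MAOA, a monoamine oxidase, one of -0.82 ± 0.351. Among the 33 cholesterol and fatty acid synthesis genes only SCAP (-0.23 ± 0.105) was at that p, among 45 cell cycle genes only CDKN2A (-0.27 ± 0.117), and among 24 glutathione genes only MGST3 (-0.35 ± 0.155). The responses of MGST3 overlapped between the lines, and its interaction was -0.18 without replicate 1 of treated shControl and -0.50 without replicate 2 of untreated shHuR.

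**Figure D4:**
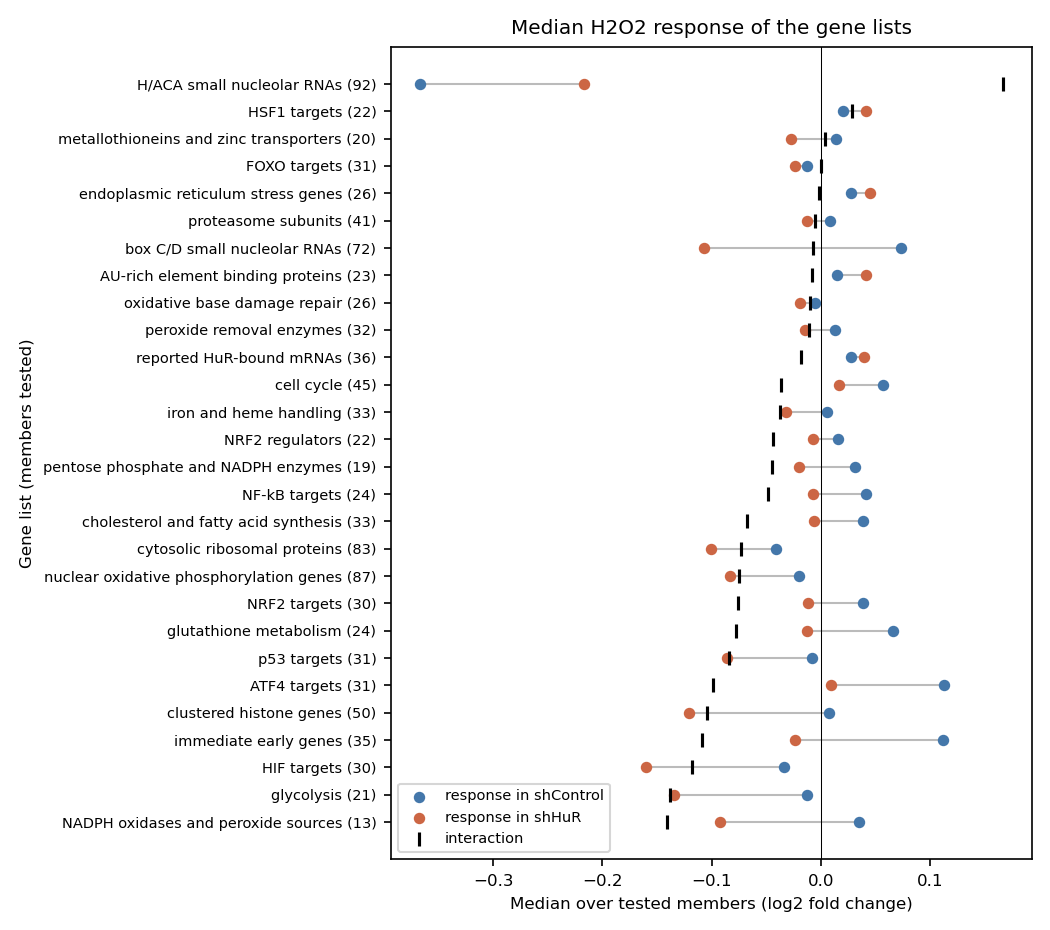
Median H2O2 response (log2 fold change, horizontal axis) of 28 gene lists in shControl (blue) and shHuR (orange), with the median interaction as a black tick and the number of members tested in brackets. Most ticks lie left of 0, HIF targets and glycolysis have their shHuR medians at -0.16 and -0.13, and the ATF4 and immediate early lists have their shControl medians at 0.11.

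The interaction moved with base composition. Genes with a transcript in the reference (15315, 95.7%) were split into 5 classes of equal size by GC content. The median interaction was 0.07 in the lowest class (31.1% to 41.6% GC), 0.03, -0.01 and -0.05 in the next 3, and -0.12 in the highest (58.9% to 77.1% GC). Spearman's rho between interaction and GC content was -0.316 and Pearson's r was -0.136 over those genes, which share their libraries. At an unadjusted p under 0.05, 3.69% of the lowest class were positive and 0.294% negative, while in the highest class 0.457% were positive and 5.22% negative. The ranked genes followed it: the median GC content was 38.9% for the 12 positive genes and 60.3% for the 12 negative ones. ZNF787, at 70.3%, and HMGN5, at 33.8%, were the ends of the range. The share of genes with a negative interaction was 26.7% in the lowest class, 62.6% in class 4 and 71.5% in the highest. Class 4 (52.6% to 58.9% GC) holds the median GC content of the ATF4, glycolysis, immediate early and histone lists. Of these lists 80.6%, 90.5%, 71.4% and 80% were negative, so 50.4% is a low share to set beside them.

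The trend varied with single libraries. Replicate 2 of untreated shHuR deviated from the mean of the 12 libraries by a median of -0.0989 log2 CPM in the lowest class and 0.0996 in the highest. Without it the medians were 0.03 in the lowest and -0.08 in the highest class, and without replicate 1 of that group 0.12 and -0.16. Without replicate 2 of treated shControl they were 0.05 and -0.08. Over the other 7 libraries deviations ran from -0.0173 to 0.0610 in the lowest class. An offset fitted to GC content in each library, an alternative chosen after seeing the data, brought the medians of the lowest and highest classes to -0.01 and -0.01. The offset removes the trend fitted to these same libraries, so class medians near 0 follow from its construction. With it HMGN5 had an interaction of 0.81, NCL 0.33, PFKFB4 -0.70, CEBPB -0.58, ZNF787 -0.39, JAG2 -0.39 and NFE2L2 -0.39, and the HIF and glycolysis medians were -0.12 and -0.10. Of 52 named genes at an unadjusted p under 0.05, 12 were not so with the offset. Among them PFKL went to -0.14, JUND to -0.26, CDKN2A to -0.14, SCAP to -0.12, DUSP9 to -0.26 and HNRNPA2B1 to 0.21, and the number of glycolysis genes negative at that p was 1. Under that offset 404 genes had an unadjusted p under 0.05 and 0 passed.

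AU-rich letters in the 3′ UTR followed GC content. The median interaction was -0.06 in 4540 genes without ATTTA and 0.05 in 3855 genes with 5 or more. Within the lowest GC class it was 0.08 in 190 genes without ATTTA and 0.07 in 2649 genes with it. Within the middle class both medians were -0.01, and within the highest they were -0.14 without and -0.10 with it.

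**Figure D5:**
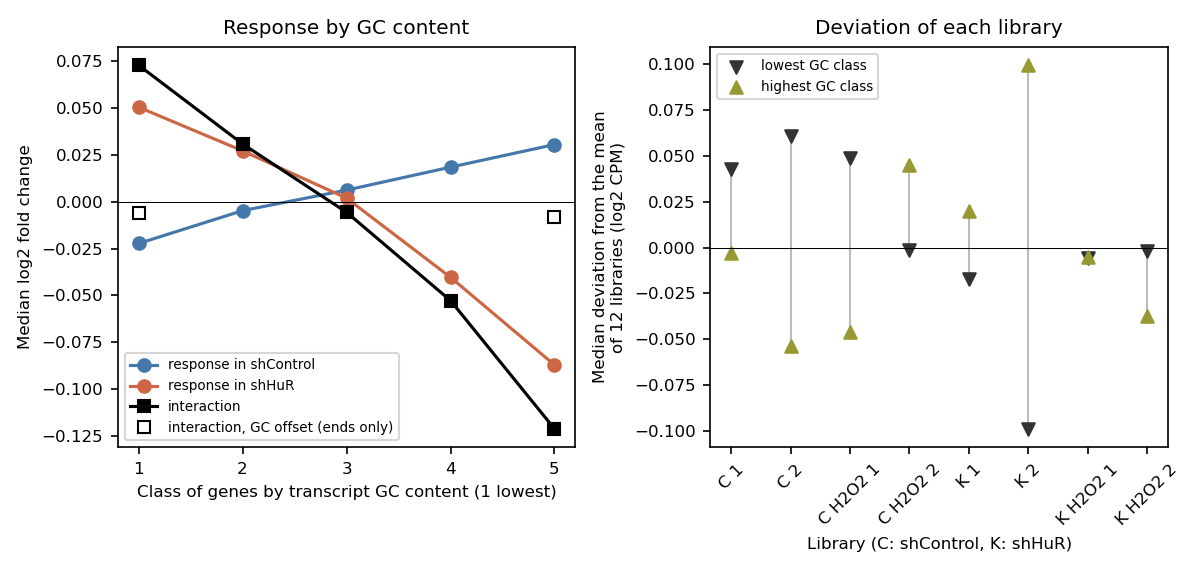
Left, median log2 fold change by class of transcript GC content (1 lowest, 5 highest) for the H2O2 response in shControl (blue), in shHuR (orange) and the interaction (black), with the interaction after the GC offset as open squares at both ends. The offset removes this trend by its construction. Right, median deviation of each library from the mean of 12 libraries in log2 CPM for the lowest and highest GC classes, where replicate 2 of untreated shHuR lies at -0.0989 and 0.0996.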

How the data were processed

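RNA was total RNA with ribosomal RNA removed by hybridization, made into strand-specific libraries and read as single-end 75 bp reads, per the labels' protocols. The submitters' processing notes name cutadapt 1.8, Bowtie2 2.2, TopHat2 2.1, Cufflinks 2.2, Cuffnorm and Cuffdiff with builds GRCh37 and hg19. The annotation, and whether counting used strand, are not given in the sources used here, so a gene and an antisense partner may share reads. The authors deposited 1 table of estimated counts per gene symbol, in which 2.25% of values (701 genes) were fractional. These were rounded. The authors' deposited FPKM values, scaled to length and library size, were used in alternatives alone.

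Genes were filtered with filterByExpr (minimum count 10). The test was edgeR 4.0.16's quasi-likelihood F-test in R 4.3.3, with TMM scaling, 6 group means over all 12 libraries (the HNE groups add to the estimate of the spread), 6 residual degrees of freedom, and Benjamini-Hochberg adjustment over all genes at 0.05. The SE is the log2 estimate over the root of F. Total counts were 24855946 to 29907258 per library, and the biological coefficient of variation was 8.32%. The labels call the libraries of a group biological replicates.

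The genes named were ELAVL1, NFE2L2, KEAP1, HNRNPD, HMOX1, NQO1, GCLM, GCLC, TXNRD1, SRXN1, SLC7A11, CAT, PRDX1, TXN and TXNIP, the 12 of smallest interaction p in each direction (at least 5 CPM in the highest group, whole counts), and up to 4 members of each of 28 lists at an unadjusted p under 0.05. Any other gene was chosen after its values were seen. Members and lists were chosen with earlier results of these data known. Alternatives were DESeq2 1.42.0, limma 3.58.1 on log2(FPKM + 1) and log2(FPKM + 0.1) with and without a filter (mean FPKM of at least 1), where fold changes are on the log2(FPKM + pseudocount) scale and understate low genes, other scalings and filters, the 8 libraries alone, whole counts only, a replicate block, a GC offset (added after seeing the data) and leaving out each library. GC content and 3′ UTRs came from GENCODE release 29 (GRCh38), 1 transcript per symbol. Scripts were tested on simulated data.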

Additional observations from a re-analysis of the deposited data

How the results depend on the processing

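The count of interactions passing the adjusted test (0) was 3 with DESeq2, 36 with no low-count filter, 3 with limma on log2(FPKM + 1) and 2 with that and no filter, and 0 to 3 with 1 library left out. Of the 36, 30 had fractional counts and 6 whole ones (DDIT4, HMGN5, PFKFB4, SNORA31, SNORA40 and SNORD97), and the cause was not tested. The 3 calls without replicate 2 of treated shControl were C8orf44-SGK3, CDK3 and ZFP91-CNTF, and the 1 without replicate 1 of untreated shHuR was C17orf61-PLSCR3. Calls of the shControl response (0) were 2 with DESeq2, 91 without a filter, 3 with limma on log2(FPKM + 1), 5 on log2(FPKM + 0.1), 3 with no limma filter and 0 to 4 with 1 library left out. Those of the shHuR response (0) were 3, 33, 2, 2 and 2 in the same order, and 0 to 2. For the line difference untreated, the 1277 calls became 1949 without a filter, 726 with limma and no filter, and 242 to 2055 with 1 library left out. For the line difference with H2O2, the 1151 calls became 1802, 675 and 290 to 1845. The sign of the interaction estimate of TXNIP (-0.0011) turned with DESeq2 (0.00049), median-ratio size factors (0.000340), library size alone (0.0014), limma (0.012 with and without a filter) and limma with 0.1 (0.0017). With 1 library left out, interactions ran from -0.28 to 0.043 for HMOX1, -0.054 to 0.036 for GCLM, -0.10 to 0.087 for TXNRD1, -0.081 to 0.15 for PRDX1, -0.15 to 0.0070 for TXN and -0.085 to 0.092 for TXNIP, and those for HMGN5, PFKFB4 and DDIT4 without a filter were 0.93, -0.75 and -0.47. Of all alternatives for the 66 named genes, 25 turned a sign, 3 gained a call and 1544 did neither. The replicate block gave 0 interactions and 0 calls in either response, with 1058 and 987 line differences (553, 663 and 514 genes at an unadjusted p under 0.05). Same-numbered replicates of the groups correlated by -0.107 to 0.129 in their deviations, and the labels do not pair them.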
